A study of Mus musculus with 64 samples.

Results

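White adipose tissue (WAT) of chow-fed mice labelled KO was compared with that of chow-fed mice labelled CTRL. The comparison was defined by the labels for tissue, genotype and diet, and no measured value was used to choose the samples. It held 8 of the 64 RNA-seq libraries of the series, 4 labelled KO and 4 CTRL. All mice were male. The strain label was C57BL/6, and the design text gives wild-type C57BL/6J for the control mice and Pklr-/- for the mutants. Both groups compared were fed standard chow under a 12-h light–dark cycle and were killed at 16 weeks of age. In the 8 other WAT libraries, 4 of each genotype, a high-sucrose diet (HSD) had been given for 8 weeks from the age of 8 weeks. The deletion is described for the whole animal, the fat depot is not named, and the hour of killing is not given in the sources consulted. The design gives 4 mice for each group, which matches the 4 libraries, but no label ties a library to a mouse, so p-values measure the spread between these libraries.

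Pklr encodes the pyruvate kinase of liver and red blood cells, which makes pyruvate from phosphoenolpyruvate in the last step of glycolysis, while most other tissues use the product of Pkm. White fat takes up glucose under insulin, stores energy as triglyceride in large adipocytes and secretes hormones such as leptin and adiponectin. Its cells also run a circadian clock, in which BMAL1 (the product of Arntl) and CLOCK drive the Per, Cry, Nr1d and D-box regulator genes, which feed back on them.

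Abundance is given as TPM, a gene's share of all transcripts in a library, scaled for transcript length and library depth. Differences are log2 fold changes, labelled KO over CTRL, from edgeR's quasi-likelihood test on rounded estimated counts, and a gene was called changed where its Benjamini-Hochberg adjusted p was under 0.05. The 8 libraries held 5724366 to 11927089 estimated counts each, with the labelled-KO libraries at 5724366 to 8666467 and the CTRL libraries at 8288079 to 11927089. White adipocyte markers summed to 34540 to 49640 TPM in the labelled-KO group and to 33750 to 48690 TPM in the CTRL group, and 0 of the 6 passed the test. The brown fat markers Ucp1 and Dio2 and the epithelial genes Krt5, Cdh1 and Cldn4 were under 1 TPM. Mesothelial markers, from the lining of intra-abdominal fat, had higher mean TPM in the labelled-KO group for 6 of 6 genes, and their summed TPM did not overlap between groups (309.0 to 477.5 against 166.1 to 297.1). One labelled-KO library, number 3, held liver transcripts: its 6 liver markers summed to 443.6 TPM, against 24.99 to 39.74 TPM in the other 3 and 24.3 to 28.12 TPM in the CTRL libraries. Albumin (Alb, 2.45 ± 0.68 SE, adjusted p = 0.0447) and transthyretin (Ttr, 3.67 ± 0.91 SE, adjusted p = 0.0257) were called higher with it, and such genes are not described further. The slope of log2 abundance on log2 transcript length, taken for each library against the mean of the WAT libraries, was 0.02 to 0.17 in the CTRL chow libraries, -0.05 to -0.02 in the labelled-KO chow libraries and -0.07 to 0.01 in the 8 HSD libraries. CTRL libraries 2 and 4 lay farthest out, at 0.17 and 0.11.

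Pklr itself was at the limit of detection in white fat. It stood at 0.0837, 0.0645, 0.869 and 0.0568 TPM in labelled-KO libraries 1 to 4 and at 0.811, 0, 0.0516 and 0.0652 TPM in CTRL libraries 1 to 4. Labelled-KO library 3 and CTRL library 1 were higher than the rest of their groups, and the groups overlapped. Labelled-KO library 3 was also the one that held liver transcripts, whose part in its Pklr value was not tested. The difference in mean log2(TPM + 1) was 0.04, and -0.16 without labelled-KO library 3. With all 8 libraries the 2-sided exact permutation p was 0.5143 (70 arrangements, smallest possible p 0.02857), so white fat gives no check of the genotype labels. In the livers of the chow groups Pklr averaged 212 ± 55.2 TPM (SD, n = 4) in the libraries labelled KO and 113 ± 37.1 TPM (SD, n = 4) in those labelled CTRL, which is higher, not lower, under the KO label. The removed part of the gene is not stated, and the group is called labelled KO throughout. Pkm, the pyruvate kinase that white fat does express, measured 254 ± 40.8 TPM (SD, n = 4) against 223 ± 44.1 TPM (SD, n = 4), a log2 difference of 0.26 ± 0.18 (SE, adjusted p = 0.416).

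Of 13255 genes tested, 156 rose and 729 fell in the labelled-KO group, which is 1.18% and 5.5% of the genes tested and 6.68% together. The TPM of the groups did not overlap for 443 genes with labelled KO above (3.34%) and 1140 with labelled KO below (8.6%). The 15 largest falls named by rule (past the threshold and not too low, without overlap of the groups and without predicted or clone names) included Tet2, Zyg11a, Chd2, Elk4 and Bdp1, and the 15 largest rises included Igfbp2, Hist1h4h, Slc25a37, Cox8b and Enho. Where groups of these largest falls and rises are described below as not overlapping, the rule required it, and it is not a further result. In whole-tissue RNA, fewer cells of a type and less RNA per cell cannot be told apart. The number of calls depended on single libraries. It was 359, 325 and 412 without labelled-KO library 1, 2 or 4, and 363 and 439 without CTRL library 2 or 4, but 1031 without labelled-KO library 3, 953 without CTRL library 3 and 775 without CTRL library 1. The rises alone numbered 36 (without CTRL library 4) to 318 (without labelled-KO library 3, which held the liver transcripts), and 250 without CTRL library 3. Without CTRL libraries 2 and 4 together, the pair with the steepest length slopes, 2 genes rose and 14 fell.

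All 4 WAT groups were then set side by side. The CTRL chow mean was the highest of the 4 group means for 701 of the 729 genes that fell (96.2%, against 41.03% of all genes tested), and the labelled-KO chow mean was the lowest for 417 (57.2%, against 15.91% of all genes). For 324 of the 729 (513 of all 13255 genes), each of the 4 CTRL chow libraries was above all 12 other WAT libraries, while for 11 (26 of all genes) the 4 labelled-KO chow libraries were below all 12 others. For the 156 genes that rose, the labelled-KO chow mean was the highest of the 4 in 153 (98.1%, against 36.7% of all genes), and 58 (138 of all genes) had all 4 labelled-KO chow libraries above the 12 others. The chow contrast itself enters these counts, so they describe where the called genes stood and are not a test.

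Of the genes named by rule, the largest fall was in Tet2 (chr3:133463679-133545139, minus strand, GRCm38), which encodes an enzyme that oxidises 5-methylcytosine in DNA. Its level was 0.144, 0.174, 0.0615 and 0.113 TPM in labelled-KO libraries 1 to 4 and 2.36, 3.46, 2.11 and 2.41 TPM in CTRL libraries 1 to 4. Every labelled-KO library was far below every CTRL library. These values rest on 3.0 to 9.3 estimated counts per labelled-KO library and 127.7 to 262.9 per CTRL library, and the log2 fold change was -4.34 ± 0.68 (SE, adjusted p = 0.00336). On HSD the same gene ranged from 0.101 to 2.12 TPM in the labelled-KO libraries and from 0.384 to 1.33 TPM in the CTRL libraries, so the groups overlapped there. The log2 change on chow minus that on HSD was -3.44 (adjusted p = 0.0795), which missed the threshold.

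Zyg11a (chr4:108181738-108218048, minus strand), which encodes a substrate-binding subunit of a cullin ubiquitin ligase, had the next largest fall of those named by rule. The predicted gene Gm38394, which the rule leaves out, was at -4.25 ± 0.49 (SE, adjusted p = 0.00121). Zyg11a measured 0.416, 0.482, 2.28 and 2.05 TPM in labelled-KO libraries 1 to 4 and 18.9, 10.7, 7.30 and 10.6 TPM in CTRL libraries 1 to 4. The groups did not overlap, and labelled-KO libraries 1 and 2 were lower than 3 and 4. Its log2 fold change was -3.14 ± 0.47 (SE, adjusted p = 0.00283), and it was the only gene among the 15 largest falls still called without CTRL libraries 2 and 4 (-3.29, adjusted p = 0.0443). Its paralog Zyg11b, named after its value was seen, fell by less: -0.75 ± 0.10 (SE, adjusted p = 0.00210). The genotype difference on chow minus that on HSD was -3.55 for Zyg11a (adjusted p = 0.0205) and -0.83 for Zyg11b (adjusted p = 0.0148).

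Of the other 13, 5 that encode proteins of chromatin or transcription are given first, a grouping made after they were seen. Chd2, a chromatin-remodelling helicase, measured 0.267, 0.553, 2.26 and 2.003 TPM in the labelled-KO libraries and 6.31, 7.23, 8.47 and 5.32 TPM in the CTRL libraries (-2.92 ± 0.57 SE, adjusted p = 0.00858). Elk4, an ETS-family factor that acts with serum response factor, measured 0.618, 1.03, 1.62 and 1.11 against 6.06, 10.7, 5.54 and 10.2 TPM (-2.78 ± 0.53 SE, adjusted p = 0.00739). Bdp1, a subunit of the RNA polymerase III initiation factor TFIIIB, measured 0.363, 0.249, 0.272 and 0.223 against 1.83, 2.54, 1.06 and 1.60 TPM (-2.77 ± 0.46 SE, adjusted p = 0.00378). In each of these 3 genes the highest labelled-KO library stayed below the lowest CTRL library, as the rule for naming required. Hipk2, a nuclear kinase that phosphorylates transcription regulators, was expressed more strongly, at 5.54, 9.32, 11.6 and 10.4 against 24.1, 43.9, 27.3 and 43.6 TPM (-1.88 ± 0.33 SE, adjusted p = 0.00505). Taf1, the largest subunit of TFIID, fell by 2.16 on the log2 scale (± 0.60 SE, adjusted p = 0.0444). Its call was lost on leaving out any single library but CTRL library 3, with adjusted p of 0.0512 to 0.131.

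Among genes of lipid, membrane and cytoskeletal handling, Vps13d, a bridge-like lipid transfer protein, measured 2.07, 2.71, 3.58 and 3.23 TPM in the labelled-KO libraries and 10.3, 12.1, 9.03 and 11.8 TPM in the CTRL libraries. The 2 ranges were well apart, and the log2 fold change was -2.05 ± 0.36 (SE, adjusted p = 0.00554). Pik3c2a, a class II phosphoinositide 3-kinase of endocytic membranes, fell by 2.48 (± 0.46 SE, adjusted p = 0.00620). Dock9, an activator of the small GTPase CDC42, measured 22.99, 24.3, 24.6 and 24.9 TPM in the CTRL libraries, against 5.65, 6.49, 7.96 and 6.08 TPM under the KO label. Its log2 fold change was -1.99 ± 0.42 (SE, adjusted p = 0.0125), and the adjusted p was 0.0507 without labelled-KO library 1. Lrrk2, a kinase of vesicle traffic, fell by 1.89 (± 0.35 SE, adjusted p = 0.00612). Fhl5, a LIM-domain coactivator that belongs with the transcription genes above, fell by 2.44 (± 0.43 SE, adjusted p = 0.00459). Apart from these, Rev3l, the catalytic subunit of DNA polymerase zeta, and Cep192, a centrosome protein, fell by 2.23 (± 0.44 SE, adjusted p = 0.00766) and 2.61 (± 0.50 SE, adjusted p = 0.00722). Both had only 3.6 to 36.3 estimated counts per labelled-KO library, so their levels there are imprecise. The same limit holds for Fhl5 (3 to 14 counts), Zyg11a (4 to 29), Bdp1 (11.1 to 16.3), Elk4 (12.1 to 37.6) and Pfkfb2 (8 to 39.2).

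Pfkfb2 is the one enzyme of glucose metabolism among the 15 largest falls. It makes fructose 2,6-bisphosphate, the activator of phosphofructokinase. It measured 3.21, 0.502, 1.41 and 1.01 TPM in the labelled-KO libraries and 4.07, 5.56, 8.14 and 5.57 TPM in the CTRL libraries (-1.92 ± 0.43 SE, adjusted p = 0.0156). The call was lost without labelled-KO library 2 or 4 (adjusted p 0.0563 to 0.0627). None of the 19 glycolysis genes tested, Pkm included, passed the threshold in either direction by edgeR.

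**Figure D1:**
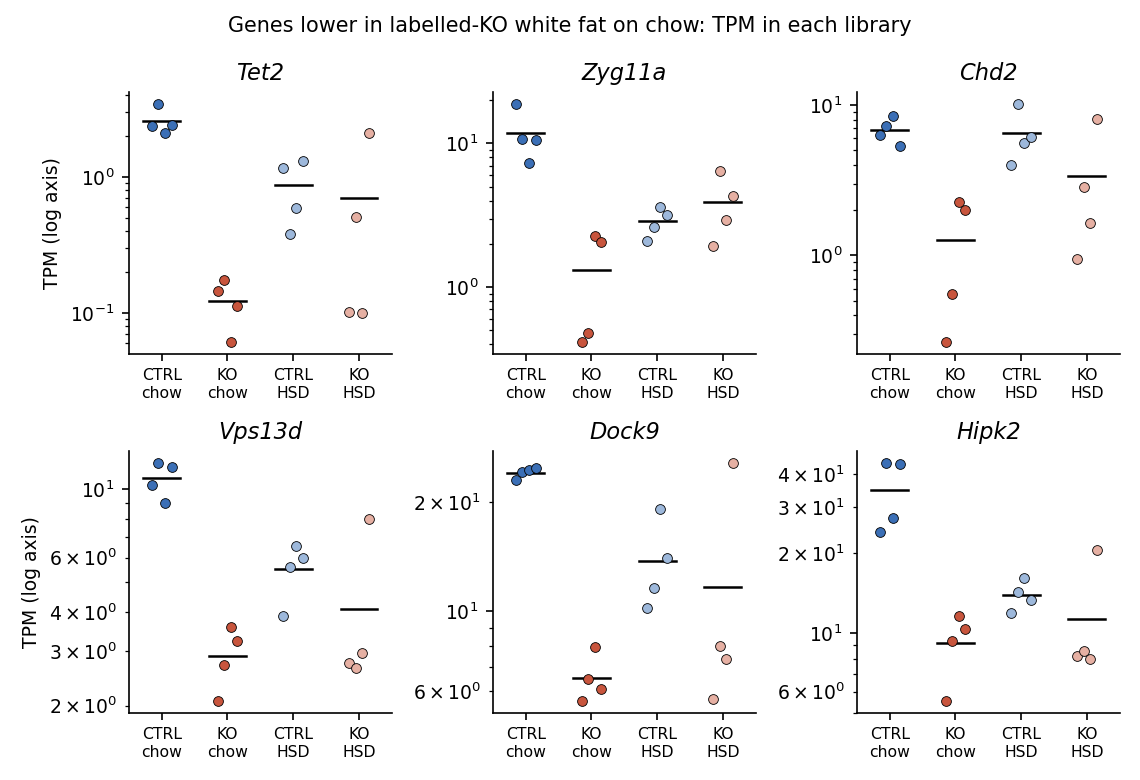
TPM of 6 genes that fell (log axes, 1 point per library, bar at the group mean) in CTRL and labelled-KO white fat on chow and on HSD. In all 6 the 4 labelled-KO chow points sit below the 4 CTRL chow points, as the rule for naming required. Labelled-KO HSD library 4 stands above its 3 group mates for Tet2, Chd2, Vps13d, Dock9 and Hipk2.

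Of the 15 largest falls, 12 stayed past the threshold on leaving out each of the 8 libraries in turn. The exceptions were Taf1, Dock9 and Pfkfb2, as given above. With each library's trend on transcript length removed, 14 of the 15 passed, all but Taf1, and with the clock covariate defined below 6 passed. The length used is the median over a gene's annotated protein-coding transcripts. For Chd2 that median was 748 bases, so the correction treated Chd2 as a short gene (-2.92 as measured, -3.07 with the trend removed). Annotated exons of Tet2, Chd2, Elk4, Pik3c2a and Pfkfb2 overlap those of a gene on the opposite strand (Gm42567, Gm44686, Mfsd4a, Gm44777 and Yod1). Those of Chd2, Elk4 and Pfkfb2 also overlap a gene on the same strand (1810026B05Rik, Gm29103 and Gm29427). Whether the counting used strand is not given in the sources used here, so reads of the opposite-strand pairs may not be told apart. Strand alone would not separate the same-strand pairs.

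The genes that fell were long. Their median transcript length was 4247 bases, against 1345 bases for the genes that rose and 2228 bases for all genes tested. The share that fell went from 2.02% of genes under 1000 bases to 24.2% of the 786 genes of 6000 bases or more, while the share that rose went from 2.64% to 0%. The median log2 fold change went from 0.15 in the shortest class to -0.33 in the longest. After the length trend of each library was removed, the class medians lay between 0.003 and 0.014, which the correction brings about by construction. In that fit 71 genes rose and 349 fell. Of those, 322 falls and 45 rises were also among the 729 and 156. Without CTRL libraries 2 and 4 the class medians still went from 0.08 to -0.23. All 4 CTRL chow libraries had a higher length slope than the other 12 WAT libraries, so on chow the slope and the genotype label cannot be told apart.

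**Figure D2:**
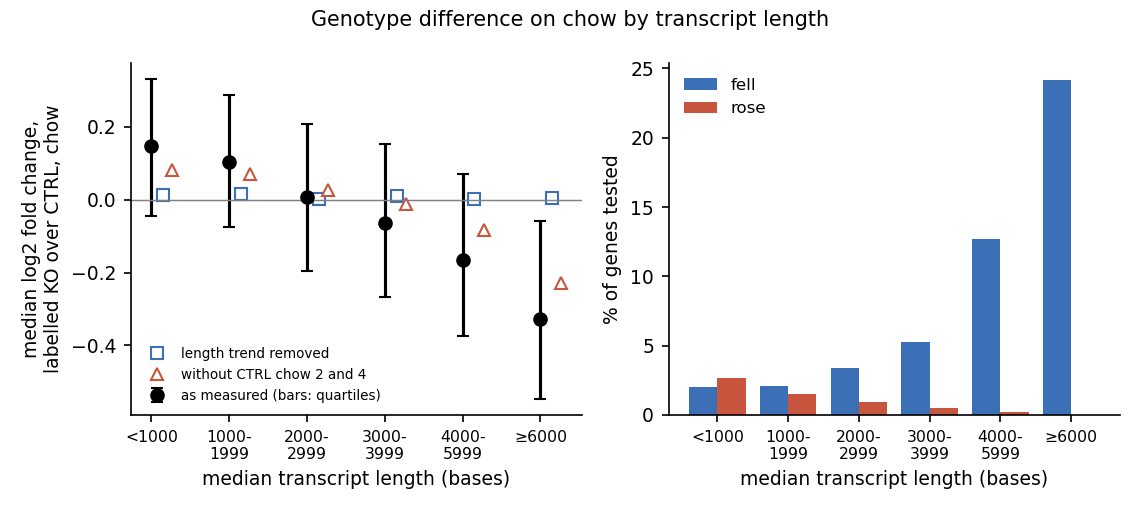
Left, the median log2 fold change (labelled KO over CTRL, chow) of genes in 6 classes of median transcript length, with bars from the lower to the upper quartile, and the medians with the length trend removed or without CTRL libraries 2 and 4. Right, the percent of genes in each class that fell or rose; the share that fell climbs from 2.02% to 24.2%.

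Several families of long regulatory genes held many falls. They were grouped by symbol after their values were seen. Of 8 Chd remodellers tested, 5 fell (Chd1, Chd2, Chd6, Chd8 and Chd9), and of 5 Kmt2 histone methyltransferases 3 fell (Kmt2a -0.71, Kmt2c -0.87, Kmt2e -0.41). All 4 Vps13 genes tested fell, from -0.57 for Vps13b to -2.05 for Vps13d. Of 6 Ubr ubiquitin ligases 4 fell. Zinc finger genes named Zfp fell in 39 of 350 cases and rose in 0, and Usp deubiquitinases fell in 9 of 44. These shares stand beside the 5.5% of all genes that fell, and the families' median lengths were 2561 bases (Zfp), 3366 (Chd), 3760 (Usp), 6428 (Ubr), 7892 (Vps13) and 8454 bases (Kmt2). Among all genes, 12.7% of those from 4000 to under 6000 bases and 24.2% of those of 6000 or more fell. In other families examined, 2 of 11 Dock genes, 2 of 13 Polr2 subunits and 6 of 233 solute carriers fell, and 2 solute carriers rose. Chd8 was an exception on the length-scaled measure: its counts fell by 0.78 on the log2 scale, while its mean TPM was 28.3 in the labelled-KO group and 25.04 in the CTRL group. Of 37 proteasome subunits, whose median length was 1239 bases, 0 passed by edgeR, and of 78 mitochondrial ribosomal protein genes 3 rose (Mrpl4, Mrpl53 and Mrps6), beside 1.18% of all genes that rose.

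Of the 36 gene lists examined, insulin signalling had the largest share of falls. Of its 18 genes tested 8 fell and 0 rose, which is 44.4% beside the 5.5% of all genes, and the list's median log2 fold change was -0.50 beside 0.02 for all genes. Insr, the insulin receptor, measured 20.9, 20.4, 26.9 and 23.2 TPM in labelled-KO libraries 1 to 4 and 43.9, 39.9, 36.7 and 44.3 TPM in CTRL libraries 1 to 4. Every labelled-KO value lay below every CTRL value, and the log2 fold change was -0.70 ± 0.14 (SE, adjusted p = 0.00766). Pik3r1, the regulatory subunit that brings PI3-kinase to the receptor substrates, measured 43.2, 30.97, 41.7 and 31.1 against 69.8, 70.6, 80.9 and 84.3 TPM (-1.04 ± 0.18 SE, adjusted p = 0.00467). Pdpk1, the kinase that phosphorylates AKT, measured 11.9, 13.6, 20.3 and 13.4 against 24.7, 25.3, 23.7 and 23.9 TPM (-0.73 ± 0.11 SE, adjusted p = 0.00283). Both were lower in every labelled-KO library.

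A further 4 members that fell were chosen for mention after their values were seen. Tbc1d4, the AKT substrate that gates glucose transporter traffic, measured 4.63, 4.92, 7.05 and 1.497 against 14.7, 18.4, 9.12 and 16.2 TPM (-1.65 ± 0.35 SE, adjusted p = 0.0124). Gsk3b, the kinase that restrains glycogen synthase, and Pik3ca, a catalytic PI3-kinase subunit, each fell by 0.56 (± 0.12 SE, adjusted p = 0.0107 and 0.0125). Foxo1, a transcription factor that insulin holds out of the nucleus, fell by 0.43 (± 0.11 SE, adjusted p = 0.0247). The insulin-regulated glucose transporter Slc2a4 (-0.09 ± 0.11 SE, adjusted p = 0.642) and the kinases Akt1 (0.26 ± 0.13 SE, adjusted p = 0.240) and Akt2 (0.18 ± 0.12 SE, adjusted p = 0.392) did not pass. The receptor substrate Irs1 also missed the threshold (-0.72 ± 0.24 SE, adjusted p = 0.0876).

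Insr, Pik3r1 and Pdpk1 stayed past the threshold on leaving out each library in turn. With the length trend removed 5 of the 18 passed. Without CTRL libraries 2 and 4, 0 of 18 passed by edgeR, with 9 at an unadjusted p under 0.05 and a median of -0.37. With a clock score, defined below, as a covariate 2 passed. On HSD 0 of the 18 passed in the edgeR fit. The genotype difference on chow minus that on HSD was, for Pik3r1, -1.15 (adjusted p = 0.0520) and for Insr -0.75 (adjusted p = 0.0747).

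**Figure D3:**
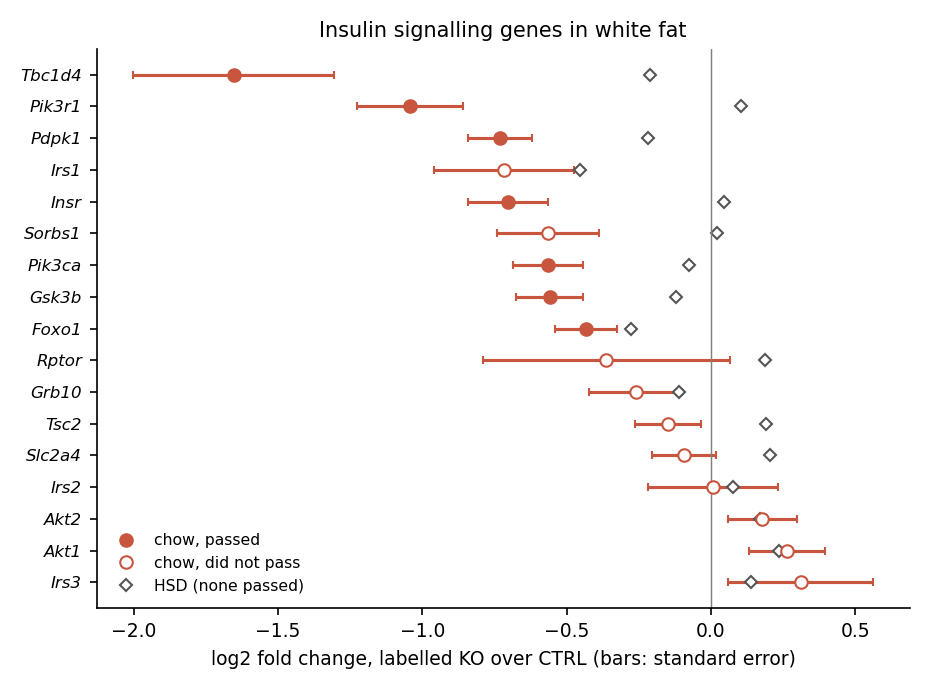
Log2 fold change (labelled KO over CTRL) of 17 of the 18 insulin signalling genes in white fat on chow with standard errors (filled where past the threshold, open otherwise) and on HSD (diamonds). The 7 filled points lie between -1.65 and -0.43, and Slc2a4, Akt1 and Akt2 lie near or above 0.

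Several clock genes differed on chow, and the promoters of 1 that rose and 1 that fell are shown because each holds motifs through which clock proteins act. Promoter sequences (250 bases before to 50 after the start, GRCm38.p6, RefSeq) were found for 20 of the 24 genes of the 2 clock lists. Motifs searched on both strands were the E-box CACGTG, the D-box TTANGNAA and the core of the ROR/REV-ERB element, TNGGTCA. They occur in 7.15%, 11.5% and 11% of 32851 promoters of that length, and the motifs are in capitals below. The Arntl window (chr7:113207215-113207514, plus strand, the farther upstream of 2 annotated starts) holds 2 ROR/REV-ERB cores, and the Per3 window (chr4:151044616-151044915, minus strand) holds 2 D-boxes and 1 ROR/REV-ERB core on the opposite strand.
Arntl: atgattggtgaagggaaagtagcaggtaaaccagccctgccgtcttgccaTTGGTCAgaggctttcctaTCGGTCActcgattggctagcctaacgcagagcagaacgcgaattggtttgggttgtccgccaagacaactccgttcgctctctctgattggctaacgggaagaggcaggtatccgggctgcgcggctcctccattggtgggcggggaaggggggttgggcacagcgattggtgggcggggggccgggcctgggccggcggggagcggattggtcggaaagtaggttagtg
Per3: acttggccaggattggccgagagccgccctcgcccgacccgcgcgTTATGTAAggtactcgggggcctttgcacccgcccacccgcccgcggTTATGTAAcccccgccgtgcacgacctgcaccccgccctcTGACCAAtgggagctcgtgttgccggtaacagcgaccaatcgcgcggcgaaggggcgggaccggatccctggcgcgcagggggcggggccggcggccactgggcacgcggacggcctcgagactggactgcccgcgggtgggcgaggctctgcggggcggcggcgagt
The windows of Nr1d2, Hlf and Nampt, which were also called on chow, hold none of the 3 motifs. Of the 20 promoters found for the clock lists, 6 hold an E-box, 3 a D-box and 4 a ROR/REV-ERB core. A match is a description of letters and not a site shown to be bound.

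On chow, Arntl rose and Per3, Nr1d2, Hlf and Nampt fell. Arntl, the partner of CLOCK, measured 13.7, 15.6, 9.30 and 7.70 TPM in labelled-KO libraries 1 to 4 and 6.39, 8.03, 4.93 and 7.09 TPM in CTRL libraries 1 to 4. The groups overlapped at labelled-KO library 4 and CTRL library 2, and the log2 fold change was 0.84 ± 0.24 (SE, adjusted p = 0.0478). Per3, a PERIOD protein of the negative limb, measured 2.52, 4.29, 7.38 and 6.52 against 13.6, 8.73, 15.1 and 8.25 TPM, with no overlap (-1.12 ± 0.28 SE, adjusted p = 0.0259). Hlf, a D-box activator, measured 1.51, 1.15, 1.66 and 1.49 against 2.92, 2.94, 4.47 and 2.52 TPM, again with no overlap (-0.91 ± 0.21 SE, adjusted p = 0.0169). Nr1d2, the repressor REV-ERB beta, measured 17.2, 16.2, 29.4 and 22.2 against 33.7, 37.2, 37.1 and 28.8 TPM (-0.67 ± 0.18 SE, adjusted p = 0.0341). There labelled-KO library 3 lay just above CTRL library 4. Nampt, whose product makes the NAD precursor, measured 38.2, 37.7, 47.98 and 36.6 against 59.1, 58.1, 64.1 and 53.6 TPM (-0.52 ± 0.15 SE, adjusted p = 0.0438).

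In all, 3 of 15 core clock genes and 2 of 8 output genes passed, beside 6.68% of all genes. Each of these calls was lost on leaving out some libraries: 3 for Hlf (labelled KO 2 and 4, CTRL 2), 4 for Per3 (labelled KO 1 and 2, CTRL 1 and 3), 6 for Nr1d2 and Arntl and 7 for Nampt, with adjusted p from 0.0550 to 0.149. Without CTRL libraries 2 and 4, 0 of either list passed by edgeR. The same held with the clock covariate, which is built from members of these lists and so removes their differences by construction. Per1, Per2, Nr1d1, Cry1, Cry2 and Dbp did not pass on chow, with log2 fold changes from -0.32 (Per2) to 0.09 (Cry2). A clock score, which subtracts the mean log2 CPM (counts scaled to library size) of 3 activators (Clock, Npas2 and Arntl) from that of 6 genes they drive (Hlf, Tef, Ciart, Dbp, Per3 and Per2), was -1.60 and -1.65 in labelled-KO libraries 1 and 2, 0.05 and 0.08 in libraries 3 and 4, and 0.84, 0.16, 1.45 and -0.52 in the CTRL libraries. Labelled-KO libraries 1 and 2 were therefore low, and 3 and 4 lay within the CTRL range.

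The genotype difference in these genes ran the other way on HSD. There Hlf measured 4.997, 6.45, 5.28 and 6.39 TPM in the labelled-KO libraries and 1.59, 1.04, 1.94 and 1.18 TPM in the CTRL libraries, a log2 fold change of 2.12 ± 0.21 (SE, adjusted p = 0.000209). Arntl measured 3.36, 2.63, 2.23 and 1.67 against 10.6, 8.00, 5.72 and 6.46 TPM, a log2 fold change of -1.64 ± 0.26 (SE, adjusted p = 0.0203). Neither gene's groups overlapped on HSD. The test of chow against HSD passed for Hlf (chow minus HSD -3.02, adjusted p = 0.000178), Arntl (2.48, adjusted p = 0.00603), Per3 (-2.38, adjusted p = 0.0148) and Nr1d2 (-1.23, adjusted p = 0.0338). The clock score of the labelled-KO HSD libraries was 2.48 to 3.38, against -1.53 to 0.23 in the CTRL HSD libraries. The hour at which each mouse was killed is not given in the sources used here, and its part in these differences was not tested.

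**Figure D4:**
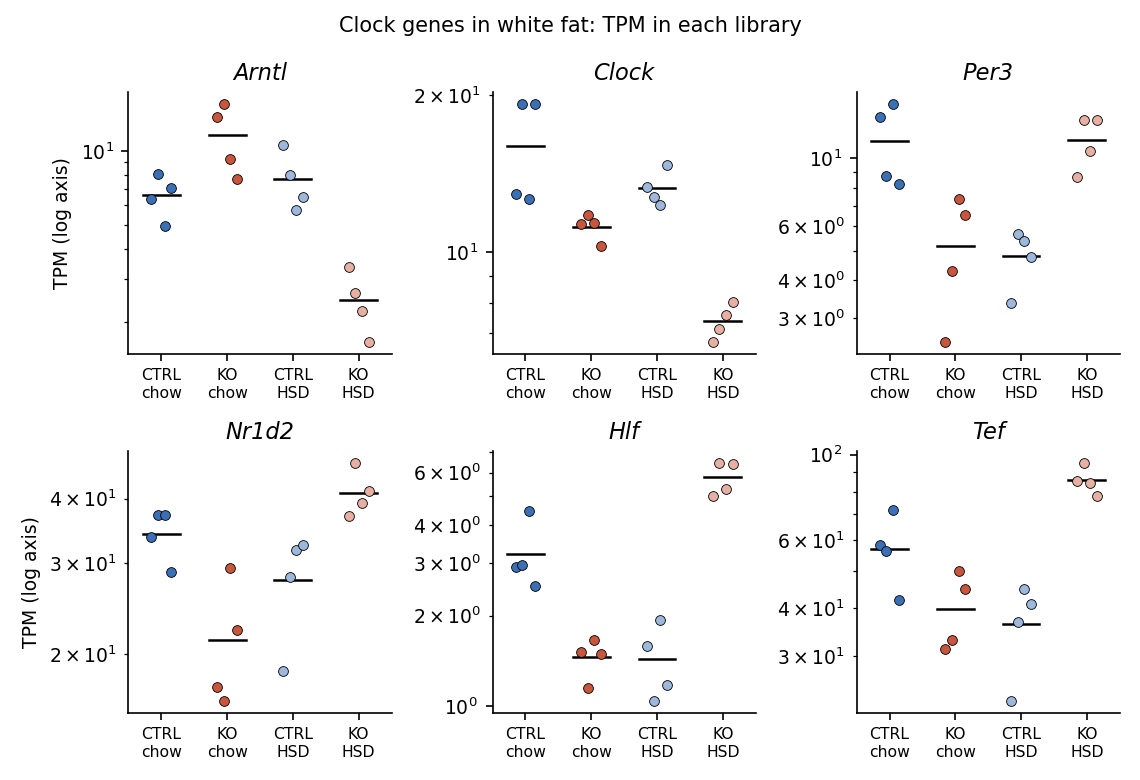
TPM of 6 clock genes (log axes, 1 point per library, bar at the group mean) in the 4 white fat groups. Per3, Nr1d2, Hlf and Tef have lower means under the KO label than in CTRL on chow and higher means on HSD, and Arntl has the reverse order; Clock and Tef did not pass on chow.

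Of the 15 largest rises, those of secreted proteins are described first. Igfbp2, which binds insulin-like growth factors, measured 37.2, 29.1, 27.3 and 96.4 TPM in labelled-KO libraries 1 to 4 and 5.198, 13.9, 25.9 and 5.25 TPM in CTRL libraries 1 to 4. Library 4 was far above its group mates, CTRL library 3 reached nearly the labelled-KO range, and the log2 fold change was 1.96 ± 0.53 (SE, adjusted p = 0.0400). Enho, which encodes the peptide adropin, measured 3.07, 4.57, 8.61 and 8.20 against 2.86, 2.36, 2.90 and 1.76 TPM (1.32 ± 0.35 SE, adjusted p = 0.0330). C1qtnf3, a secreted relative of adiponectin, measured 5.51, 3.28, 2.73 and 5.09 against 1.51, 2.19, 1.37 and 2.06 TPM (1.27 ± 0.33 SE, adjusted p = 0.0292). On HSD C1qtnf3 was at -1.43 and its chow minus HSD difference was 2.70 (adjusted p = 0.0204). The whey-acidic-protein gene Wfdc21 rose by 1.19 (± 0.30 SE, adjusted p = 0.0269). Leptin (Lep, 0.27 ± 0.23 SE, adjusted p = 0.517) did not pass, and of 14 white adipocyte genes 0 passed by edgeR.

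Both mitochondrial genes among the largest rises held through every leave-one-out fit. Slc25a37 (chr14:69241848-69285112, minus strand), which encodes mitoferrin, an iron importer of the inner mitochondrial membrane that red cell precursors express strongly, measured 6.21, 5.98, 6.72 and 8.15 TPM in the labelled-KO libraries. In the CTRL libraries it measured 1.26, 4.43, 2.61 and 2.38 TPM, so the groups did not overlap (1.37 ± 0.28 SE, adjusted p = 0.00918). It was the only one of the 15 largest rises still called without CTRL libraries 2 and 4 (1.84, adjusted p = 0.0432). Red blood cell genes summed to 1008 to 4496 TPM in the labelled-KO group and 1479 to 3197 TPM in the CTRL group, which overlapped. Its exons overlap the predicted genes Gm27223 and Gm31748 on the opposite strand. Cox8b (chr7:140898945-140900446, minus strand), the cytochrome c oxidase subunit of muscle and brown fat, measured 91.6, 113, 70.1 and 72.0 against 41.4, 34.1, 27.8 and 42.4 TPM (1.35 ± 0.28 SE, adjusted p = 0.0103). The HSD groups lay at 53.8 to 134 TPM (labelled KO) and 62.99 to 79.6 TPM (CTRL), above all 4 CTRL chow libraries. Of 8 thermogenic genes tested Cox8b was the 1 that passed (12.5%, beside 1.18% of all genes that rose), and Cox7a1 (0.72 ± 0.43 SE, adjusted p = 0.326) did not.

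Of 25 matrix proteins and enzymes in a list, Eln was the 1 that rose (4%, beside 1.18% of all genes), and the list's median log2 fold change was 0.11. Eln, which encodes elastin, measured 71.7, 102, 73.2 and 90.3 TPM in the labelled-KO libraries and 55.8, 42.1, 34.3 and 36.7 TPM in the CTRL libraries, without overlap (1.02 ± 0.22 SE, adjusted p = 0.0147). The adjusted p was 0.0504 and 0.0541 without labelled-KO library 2 or CTRL library 4. Cilp, a matrix protein outside that list that restrains growth factors, was among the 15 largest rises and measured 45.7, 59.9, 33.5 and 50.9 against 28.5, 27.98, 15.9 and 22.5 TPM (1.03 ± 0.25 SE, adjusted p = 0.0230). Collagen chain genes did not pass singly: 0 of 22 by edgeR, with 18 of 22 higher and a median log2 fold change of 0.31. That median was 0.55 with the length trend removed and 0.02 with the clock covariate, while 3 passed by DESeq2. In the TGF-beta and fibrosis list 10 of 15 were positive and the receptor Tgfbr1 alone passed, as a fall (-0.52 ± 0.13 SE, adjusted p = 0.0312). Of 11 fat progenitor markers 9 were positive (median 0.31), while Pdgfra alone passed, as a fall (-0.51 ± 0.12 SE, adjusted p = 0.0207). These falls are 6.67% and 9.09% of their lists, beside 5.5% of all genes. Both calls were lost in 5 of the 8 leave-one-out fits (adjusted p 0.0506 to 0.117).

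Msln, the mesothelial surface protein mesothelin, was the 1 of the 6 mesothelial markers that passed. It measured 137, 130, 96.7 and 138 TPM in the labelled-KO libraries and 62, 91.8, 55.6 and 41.3 TPM in the CTRL libraries (1.03 ± 0.30 SE, adjusted p = 0.0487). How much of the depot's lining each sample held was not measured, and its part in the other rises was not tested. The remaining large rises were Epha1 (1.18 ± 0.34 SE), an ephrin receptor, Traf4 (0.9998 ± 0.29 SE), a signalling adaptor, Foxs1 (1.02 ± 0.29 SE), a forkhead factor of perivascular cells, Kcnab1 (0.9981 ± 0.26 SE), a potassium channel subunit, and Snrnp25 (0.99 ± 0.25 SE), a part of the minor spliceosome. Their adjusted p were 0.0247 to 0.0478. Hist1h4h, a histone H4 gene, also rose (1.48 ± 0.41 SE, adjusted p = 0.0387), but near-identical H4 copies make its share of reads uncertain.

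Of these 15 largest rises, Slc25a37 and Cox8b alone passed in each of the 8 leave-one-out fits. Eln and Snrnp25 were lost in 2, Enho, Wfdc21 and Cilp in 5, Igfbp2, Hist1h4h, Epha1, Msln, Foxs1 and Traf4 in 6, and C1qtnf3 and Kcnab1 in 7, with adjusted p between 0.0504 and 0.136. All kept a positive sign. With the length trend removed 7 of the 15 passed: Slc25a37, Cox8b, C1qtnf3, Epha1, Cilp, Eln and Kcnab1. With the clock covariate 0 of the 15 passed by edgeR, and all 15 kept their sign. Besides Slc25a37, exons of Enho, Epha1, Eln and Kcnab1 overlap a gene on the opposite strand (Dnaic1, Zyx, Gm30003 and A330015K06Rik).

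**Figure D5:**
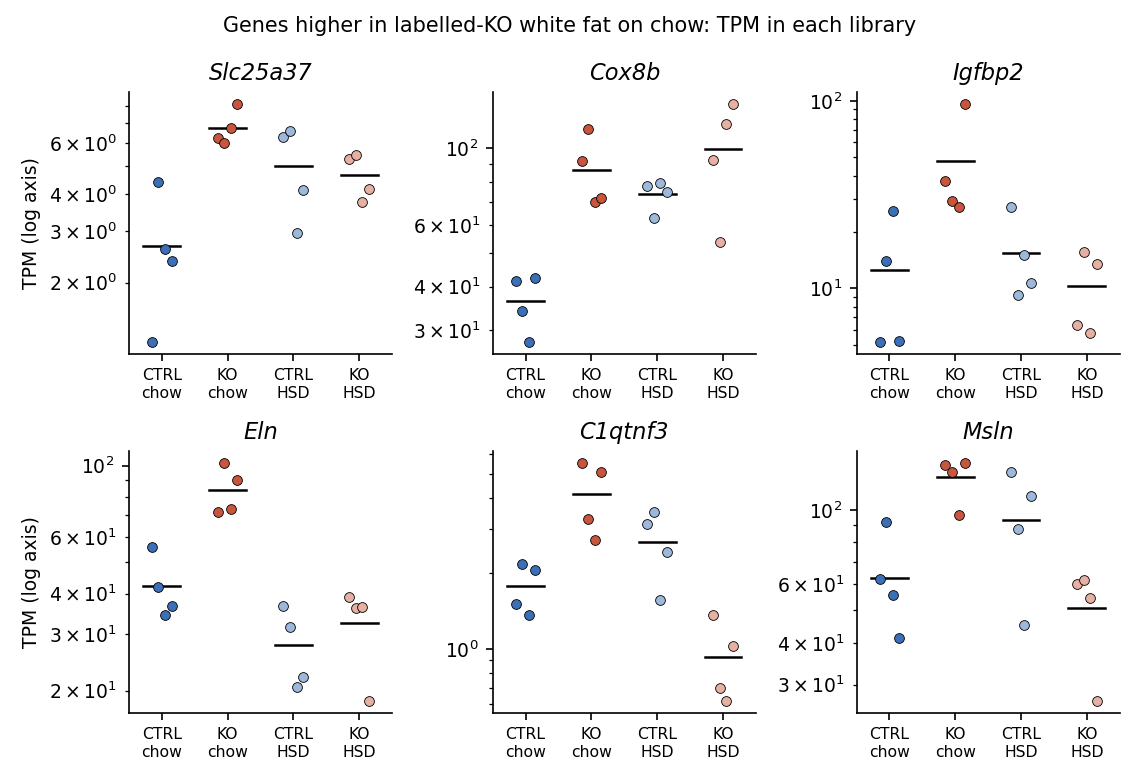
TPM of 6 genes that rose (log axes, 1 point per library, bar at the group mean) in the 4 white fat groups. On chow the labelled-KO points lie above the CTRL points in all 6, as the rule for naming required, narrowly for Igfbp2. On HSD the labelled-KO means lie below the CTRL means for Slc25a37, Igfbp2, C1qtnf3 and Msln.

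Lipid metabolism changed in few genes. Of 21 lipogenic genes 0 passed by edgeR, and the median log2 fold change was -0.01. Acaca, the cytosolic acetyl-CoA carboxylase, measured 128, 93.9, 61.6 and 67.1 TPM in the labelled-KO libraries and 96.4, 198, 207 and 220 TPM in the CTRL libraries (-0.78 ± 0.35 SE, adjusted p = 0.192). CTRL library 1 lay within the labelled-KO range. Gpam, the mitochondrial enzyme that starts triglyceride synthesis, did fall: it measured 52.2, 49.5, 79.7 and 70.5 against 136, 130, 75.6 and 126 TPM (-0.86 ± 0.17 SE, adjusted p = 0.00852). The call held on leaving out each library, although CTRL library 3 fell among the labelled-KO values. Its chow minus HSD difference was -1.52 (adjusted p = 0.0130). Gpam was the 1 of 12 triglyceride synthesis genes tested that passed (8.33%, beside 5.5% of all genes that fell). Of 19 fatty acid oxidation genes, 12 were positive and 2 fell (10.5%, beside 5.5% of all genes): Ehhadh, the peroxisomal bifunctional enzyme (-0.66 ± 0.15 SE, adjusted p = 0.0159), and Ppara, the nuclear receptor that drives the pathway (-0.76 ± 0.21 SE, adjusted p = 0.0437). Ehhadh lost its call without labelled-KO library 2 or 4 (adjusted p 0.0550 to 0.0753), and Ppara without any library but CTRL 1 (0.0664 to 0.142). The lipolysis list had 0 of 13 past the threshold by edgeR, and G0s2, an inhibitor of adipose triglyceride lipase, was nearest (0.83 ± 0.28 SE, adjusted p = 0.0886). Srebf2, the regulator of cholesterol synthesis, rose by 0.45 (± 0.13 SE, adjusted p = 0.0410). It was the 1 of 17 genes of its list tested that passed (5.88%, beside 1.18% of all genes that rose). Its call was lost in 6 leave-one-out fits (adjusted p 0.0519 to 0.0945). None of the 27 TCA cycle and pyruvate oxidation genes passed by edgeR (0 of 27).

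Short genes of the respiratory chain and the ribosome lay slightly higher, and of these lists only Cox6b1 passed. Of 37 complex I subunits 35 had a positive log2 fold change and 0 passed by edgeR, with a median of 0.26 and a median length of 704 bases. Without CTRL library 3 the median was 0.40 and 6 rose. It was 0.17 without CTRL library 2, 0.10 without CTRL libraries 2 and 4 and 0.14 with the length trend removed. Of 34 subunits of complexes III to V 33 were positive and Cox6b1 alone passed (0.39 ± 0.11 SE, adjusted p = 0.0458). That is 2.94% of the list, beside 1.18% of all genes that rose. Cox6b1 was at 0.23 (adjusted p = 0.262) with the length trend removed, and its call was lost in 6 leave-one-out fits. Cytosolic ribosomal proteins were positive in 31 of 34, with a median of 0.17 and 0 passing by edgeR. Genes under 1000 bases as a whole had a median of 0.15, and of all 13255 genes tested 7005 were positive.

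Immune and vascular genes gave a few small rises. In the antigen presentation list 8 of 8 were positive and 2 rose (25%, beside 1.18% of all genes, and 0 by edgeR without CTRL library 4, without CTRL libraries 2 and 4, or with the clock covariate): H2-DMb1 (0.71 ± 0.16 SE, adjusted p = 0.0165) and H2-DMa (0.54 ± 0.14 SE, adjusted p = 0.0312), which encode the chains that load peptide on class II molecules. H2-DMb1 measured 30.4, 29.6, 35.7 and 38.2 TPM in the labelled-KO libraries and 17.99, 25.9, 21.7 and 18.4 TPM in the CTRL libraries, without overlap. Of 16 interferon-induced genes all were positive (median 0.53) and 1 passed (6.25%, beside 1.18% of all genes): Bst2, the virus-tethering protein tetherin (0.64 ± 0.15 SE, adjusted p = 0.0195). That median was 0.30 without labelled-KO library 2 and 0.22 with the clock covariate. Of 16 macrophage markers 0 passed by edgeR, and their summed core markers overlapped (132.9 to 178.0 against 139.3 to 209.1 TPM). Gpnmb, a glycoprotein of lipid-laden macrophages, fell: it measured 4.08, 5.44, 8.99 and 7.49 against 18.1, 6.49, 19.8 and 21.9 TPM (-1.33 ± 0.32 SE, adjusted p = 0.0213). CTRL library 2 lay within the labelled-KO range. Gpnmb was the 1 of 18 lipid-associated macrophage genes that passed (5.56%, beside 5.5% of all genes that fell), and 10 of the 18 were positive (median 0.05). Mmp12 was at -1.52 ± 0.45 (SE, adjusted p = 0.0504) and Atp6v0d2 at -1.10 ± 0.37 (SE, adjusted p = 0.0813), while Fabp5 was at 0.44 (adjusted p = 0.3998). Esam, an endothelial adhesion molecule (0.43 ± 0.10 SE, adjusted p = 0.0198), and Bax, the pro-apoptotic p53 target (0.53 ± 0.13 SE, adjusted p = 0.0187), rose. They were the only calls among 12 endothelial markers (8.33%) and 11 p53 targets (9.09%) tested, beside 1.18% of all genes that rose. Of 26 cell division genes 23 were positive (median 0.29) and 0 passed by edgeR. In the lists for lymphocytes, neutrophils and mast cells, ER chaperones, the integrated stress response, heat shock, glucocorticoid response and hypoxia 0 genes passed by edgeR. The calls of H2-DMb1 (without CTRL library 4), Esam, Bst2, H2-DMa, Gpnmb and Bax were lost in 1 to 4 of the 8 leave-one-out fits, with adjusted p of 0.0538 to 0.0994.

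A set of 14 genes, 13 that fell and 1 that rose, was called in 3 fits at once: as measured, with the length trend removed, and without CTRL libraries 2 and 4. They are named after their values were seen. The length correction used each gene's median transcript length. For Ankhd1 that was 932.5 bases, so it was treated as a short gene and moved from -1.18 to -1.31. Cnot1, the scaffold of the CCR4-NOT deadenylase, measured 8.54, 9.88, 11.3 and 9.57 TPM in the labelled-KO libraries and 21.8, 25.7, 19.6 and 20.9 TPM in the CTRL libraries (-1.12 ± 0.14 SE, adjusted p = 0.00121). Dhtkd1, a mitochondrial dehydrogenase of lysine breakdown, measured 5.74, 5.71, 6.64 and 6.23 against 11.5, 10.2, 10.8 and 10.7 TPM (-0.76 ± 0.09 SE, adjusted p = 0.00121). Both had narrow groups that lay well apart. Arid2, a subunit of the PBAF remodeller (-0.89 ± 0.14 SE), Ankhd1, an ankyrin-repeat protein (-1.18 ± 0.16 SE), Heatr1, a factor of ribosome biogenesis (-1.30 ± 0.18 SE), Atp11b, a phospholipid flippase (-0.86 ± 0.12 SE), and Prrc2c, an RNA-binding protein (-0.86 ± 0.13 SE), were also among them. The others were Zyg11a, Zyg11b, Gpnmb, Zfp966, the predicted gene Gm38394, the clone-named 9930021J03Rik and, as the 1 rise, Slc25a37.

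The same genotype comparison was made on HSD. There 14 genes were called between the genotypes (0.106% of those tested), 10 higher (0.0754%) and 4 lower (0.0302%), and 0 of the 729 falls and 0 of the 156 rises on chow were called in the same direction by edgeR. The HSD calls numbered 60 (27 higher, 33 lower) without labelled-KO HSD library 4, the one that stands apart in the plot of falls by library, and 64 (25 higher, 39 lower) without CTRL HSD library 3. They numbered 1 to 9 without any of the other 6. Of the 729 chow falls 526 were lower on HSD as well, with a median of -0.10, beside 6541 of 13255 for all genes. Of the 156 rises 60 were higher on HSD, with a median of -0.07. The test of the difference itself called 76 genes (0.573%; 25 positive, 0.189%, and 51 negative, 0.385%), of which 47 were also called on chow, 34 of them falls and 13 rises. The chow and HSD comparisons share no library, but the interaction uses the chow libraries again.

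Genes of hormone and nuclear receptor action were among those 47, named here after their values were seen. Esr1, the estrogen receptor alpha, measured 7.68, 5.93, 8.06 and 6.67 TPM in labelled-KO chow libraries 1 to 4 and 12.9, 13.1, 9.64 and 13.8 TPM in the CTRL chow libraries (-0.76 ± 0.15 SE, adjusted p = 0.00681), with 0.24 on HSD and an interaction of -0.9988 (adjusted p = 0.0346). Ncoa1, a coactivator of such receptors, was at -0.59 on chow and 0.29 on HSD (interaction adjusted p = 0.0148). The chow groups did not overlap for Esr1, while for Ncoa1 labelled-KO library 3 (18.21 TPM) all but reached CTRL library 3 (18.25 TPM). Rarres2, which encodes the adipokine chemerin, went the other way: 1090, 1071, 960.2 and 1147 TPM against 657.7, 737, 777.3 and 800.1 TPM on chow (0.57 ± 0.12 SE, adjusted p = 0.0125), with -0.46 on HSD and an interaction of 1.03 (adjusted p = 0.0148).

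Of 18 tested neighbours of Pklr on its chromosome, Efna1, an ephrin ligand, rose (0.87 ± 0.20 SE, adjusted p = 0.0156) and Ash1l, a histone methyltransferase, fell (-0.81 ± 0.14 SE, adjusted p = 0.00412). Each is 5.56% of the 18, beside 1.18% of all genes that rose and 5.5% that fell. Ash1l was at -0.36 (adjusted p = 0.0607) with the length trend removed, and Efna1 lost its call without labelled-KO library 1 or 2 (adjusted p 0.0536 to 0.0575).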

How the data were processed

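RNA-seq of white fat from 4 labelled-KO and 4 CTRL chow-fed mice was compared. The authors deposited gene tables of estimated counts and of TPM (abundance scaled for transcript length and depth) made with kallisto against GRCm38, per the submitters' processing notes. Its version, annotation release and strand setting were not given in the sources used here. Each library was matched to its labels through its description. Rounding made the estimated counts whole, and genes were kept by filterByExpr (minimum count 10), which left 13255 of 19521. TMM factors and edgeR 4.0.16 (R 4.3.3) quasi-likelihood fits (robust) used all 16 white fat libraries with a mean for each of 4 groups, 2-sided, with Benjamini-Hochberg adjustment over all genes tested. SE is the absolute log2 fold change over the square root of F. Levels are TPM. No 2 replicate libraries were identical. Counts of 2 libraries were also compared by chi-square per degree of freedom. Labelled-KO library 1 was close to 2 (6.2) and 3 to 4 (9.4), against 24.3 to 28.9 for the other labelled-KO pairs. The CTRL pairs ranged from 11.9 (3 with 4) to 37.3 (1 with 2). The labels give no reason for these pairs, and the p-values take the libraries as independent. Library totals of 5724366 to 11927089 estimated counts bound the precision of low genes. Transcript length is the median over protein-coding transcripts of GENCODE M21 (99.56% of genes tested). Promoters are from RefSeq.

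Named genes are Pklr and Pkm, the 15 largest rises and falls past the threshold whose log2 CPM averaged at least 1 and whose groups did not overlap in TPM (leaving out Mup and Serpina1 copies and genes with predicted or clone names), and up to 4 members of each of 36 gene lists with the smallest p. Genes named outside this rule are marked in the text, and a few genes are not reported here, although they are in the counts. The comparison and lists were chosen with earlier results of these data known. Pklr was tested by an exact permutation test on log2(TPM + 1). Alternatives were DESeq2 1.42.0 size factors and its Wald test, limma 3.58.1 on log2 TPM with pseudocount 1 or 0.1, no filter, only the 8 libraries compared, a loess length correction, leaving out libraries, and a clock score as a covariate. Leaving out CTRL libraries 2 and 4 with labelled-KO library 3, leaving out HSD libraries, and all alternatives of the HSD comparison, were chosen after seeing the data. The fit was tested on simulated data.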

Additional observations from a re-analysis of the deposited data

Results flagged for a closer look

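Among groups of 4 libraries, a library was looked at again where its gap to the nearest other exceeded Dixon's 95% limit. Chance does so in about 1 in 20 groups, and 76 groups were checked. Labelled-KO library 3 stood alone for the summed liver markers (443.6 TPM, the other 3 at 24.99 to 39.74), for Pklr (0.869 TPM, the other 3 at 0.0568 to 0.0837) and for Nampt (47.98 TPM, the other 3 at 36.6 to 38.2). Labelled-KO library 4 stood alone for Igfbp2 (96.4 TPM, the other 3 at 27.3 to 37.2) and labelled-KO library 1 for Kcnab1 (5.96 TPM, the other 3 at 5.48 to 5.50). CTRL library 1 was high for Pklr (0.811 TPM, the other 3 at 0 to 0.0652), and CTRL library 2 was low for Hist1h4h (4.73 TPM, the other 3 at 8.46 to 8.76).

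The genotype difference differed between chow and HSD, by the interaction test of edgeR, for 9 of the genes named by rule. On the log2 scale, chow minus HSD, it was -3.551 for Zyg11a, -3.025 for Hlf, -2.835 for Fhl5, -2.384 for Per3, -1.524 for Gpam, -1.23 for Nr1d2 and -1.129 for Ehhadh. It was 2.699 for C1qtnf3 and 2.483 for Arntl. Zyg11a and Fhl5 were the 2 among the 15 largest falls and C1qtnf3 the 1 among the 15 largest rises.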

How the results depend on the processing

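The count of 885 genes on chow (156 higher, 729 lower) was 825 with DESeq2 size factors, 701 with no filter and 637 with limma on log2(TPM + 1). It was 1390 (396 higher, 994 lower) with the DESeq2 Wald test, 569 with limma on log2(TPM + 0.1), 569 with only the 8 libraries compared, 420 after removal of length trends, 96 with a clock covariate, 16 without CTRL libraries 2 and 4, and 63 without those and labelled-KO library 3. The share of calls that were higher was 17.63%, and 28.49% with DESeq2. Leaving out 1 library gave 325 to 1031 calls, the lowest without labelled-KO library 2 and the highest without labelled-KO library 3. The 14 calls on HSD were 153 with DESeq2 and 1 to 64 on leaving out a library. The 76 interaction calls were 519 with DESeq2, 43 with limma and 17 to 276 on leaving out a library (276 without CTRL HSD library 3, 221 without labelled-KO chow library 3). The cause of these shifts was not tested, beyond fewer libraries in the fits that leave some out. The Pklr difference of 0.04 was -0.16 without labelled-KO library 3, and -0.04, -0.02 and -0.01 without CTRL library 2, 3 or 4, with a range of -0.16 to 0.24 over the 8 fits. No called gene named by rule changed sign. The median log2 fold change of all genes stayed between -0.02 and 0.06. No paired analysis was possible because the labels give no pairing of mice between the genotypes. Genes at a few estimated counts, such as Tet2 under the KO label, are limited by depth.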

Other observations

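Some values outside the lists may merit attention, named after they were seen and given without an explanation. Abcd2, a peroxisomal importer of fatty acyl-CoA, measured 156, 139, 163 and 134 TPM in labelled-KO chow libraries 1 to 4 and 200.2, 223, 192 and 227 TPM in CTRL chow libraries 1 to 4. The groups did not overlap (-0.48 ± 0.10 SE, adjusted p = 0.0125), and the difference on chow minus that on HSD was -0.75 (adjusted p = 0.0300). Mitf, a transcription factor of lysosome and pigment genes, measured 3, 2.81, 5.25 and 4.72 against 17.2, 15.2, 7.503 and 9.48 TPM (-1.43 ± 0.27 SE, adjusted p = 0.00620), and its difference on chow minus that on HSD was -1.95 (adjusted p = 0.0281). Polr2a, the largest subunit of RNA polymerase II, measured 26.5, 27.2, 31.8 and 31.1 against 37.4, 46.5, 31.6 and 41.5 TPM (-0.40 ± 0.10 SE, adjusted p = 0.0247), with CTRL library 3 inside the labelled-KO range.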
